A study of Danio rerio with 2 samples.

Results

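Notch-active epithelial progenitors were looked for among single cells of the zebrafish larval gut, and 663 of 9318 kept cell barcodes met the rule for them. A kept barcode had at least 500 detected genes and at most 25% of its UMIs (unique molecular identifiers, 1 for each captured RNA molecule) in mitochondrial genes. A member in addition had a UMI of at least 2 of the genes her15.1, ascl1a, atoh1b, neurl1aa and tnfrsf11a, at least 1 UMI of epcam, none of elavl3 or cdh5, and under 2% of its UMIs in the absorptive genes fabp2, fabp1b.1, rbp2a and chia.2 in sum. The members were thus chosen by the measured UMIs of these genes. The rule kept 318 of 3967 il26KO barcodes and 345 of 5351 WT barcodes. The guts were dissected at 5 days post fertilization from il26KO larvae, which carry a CRISPR/Cas9 deletion in the gene of the cytokine IL-26, and from WT larvae. The parents of both were adult clutchmates that had been kept in separate tanks by genotype. For each genotype 50 guts were dissociated in 5 tubes of 10, pooled, passed over a density gradient for live cells and run as 1 droplet library. With 1 library a genotype there is no replicate and no test between genotypes: the parents' tank, the dissection and the library cannot be told apart from the genotype. Every interval given is a 95% interval and covers counting error only.

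Both libraries were deep and similar in their totals, with 122200924 UMIs in il26KO and 125236138 in WT over all barcodes. Members had a median of 17343.5 UMIs in il26KO (996 to 410914) and 17648 in WT (844 to 366616). The other epithelial barcodes, meaning kept barcodes with epcam and without elavl3 or cdh5 that were not members, numbered 1758 in il26KO and 1924 in WT. Their median depth was 23115 UMIs in il26KO and 15703.5 in WT, so the depth of this comparison group differed between the libraries more than that of the members did. Of all barcodes with at least 500 genes, 11 sequences occurred in both libraries, and 1 il26KO member and 0 WT members were among them.

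Notch signalling lets neighbouring cells take different fates. A Delta or Jagged ligand on one cell binds a Notch receptor on the next, the receptor is cut, and its inner part enters the nucleus and turns on hairy-related repressors such as the her genes. In the gut epithelium, cells with active Notch are held back from the secretory fates, while cells that make the ligands and proneural factors such as ascl1a go on to secretory fates, among them hormone-producing enteroendocrine cells.

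The genes of the rule chose the members, so their levels are a description. her15.1, a hairy-related repressor, had a UMI in 232 il26KO members and 288 WT members. ascl1a, a proneural transcription factor, had one in 81 il26KO members and 78 WT members. neurl1aa, of the Neuralized family of ubiquitin ligases that act on Delta, was found in 300 il26KO members and 326 WT members, and tnfrsf11a, the receptor RANK, in 190 il26KO members and 183 WT members. atoh1b, a relative of the secretory master factor Atoh1, had 0 UMIs in any barcode of either library, so the rule in effect asked for 2 of 4 genes. The 4 genes were therefore seen mostly in pairs: 195 il26KO members and 205 WT members had exactly 2 of them, 79 and 95 had 3, and 44 and 45 had all 4.

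her15.1 reached 520 CPM (UMIs scaled to 1000000 UMIs of the library's members, summed over the members of a library) in il26KO members and 458 CPM in WT members, against 20.2 and 37.2 CPM in other epithelial barcodes. tnfrsf11a stood at 95.6 CPM in il26KO members and 56.4 in WT members, against 1.95 and 2.70 CPM in other epithelial barcodes. anxa4, an annexin listed as a marker of these cells but not used by the rule, had 2967 CPM in il26KO members and 2666 CPM in WT members, against 1076 and 1502 CPM in other epithelial barcodes. It had a UMI in 84.5% of the other epithelial barcodes of il26KO and 86.6% of those of WT.

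The plot of the rule genes at equal depth compares members with 3 other classes of barcode after each barcode was thinned to 1000 UMIs. A her15.1 UMI was then left in 35.3% of il26KO members (30.1 to 40.9) and 35.8% of WT members (30.7 to 41.1), against 73.0% and 83.5% before thinning. In leukocyte barcodes, which should lack her15.1, the thinned shares were 0.565% in il26KO and 1.79% in WT, and the unthinned ones 8.94% and 6.70% at median depths of 24443 and 18248.5 UMIs. In endothelial barcodes the thinned shares were 6.71% in il26KO and 5.52% in WT, at median depths of 7238 and 5501 UMIs. The shares in members, which the rule chose for these genes, lay above both.

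**Figure D1:**
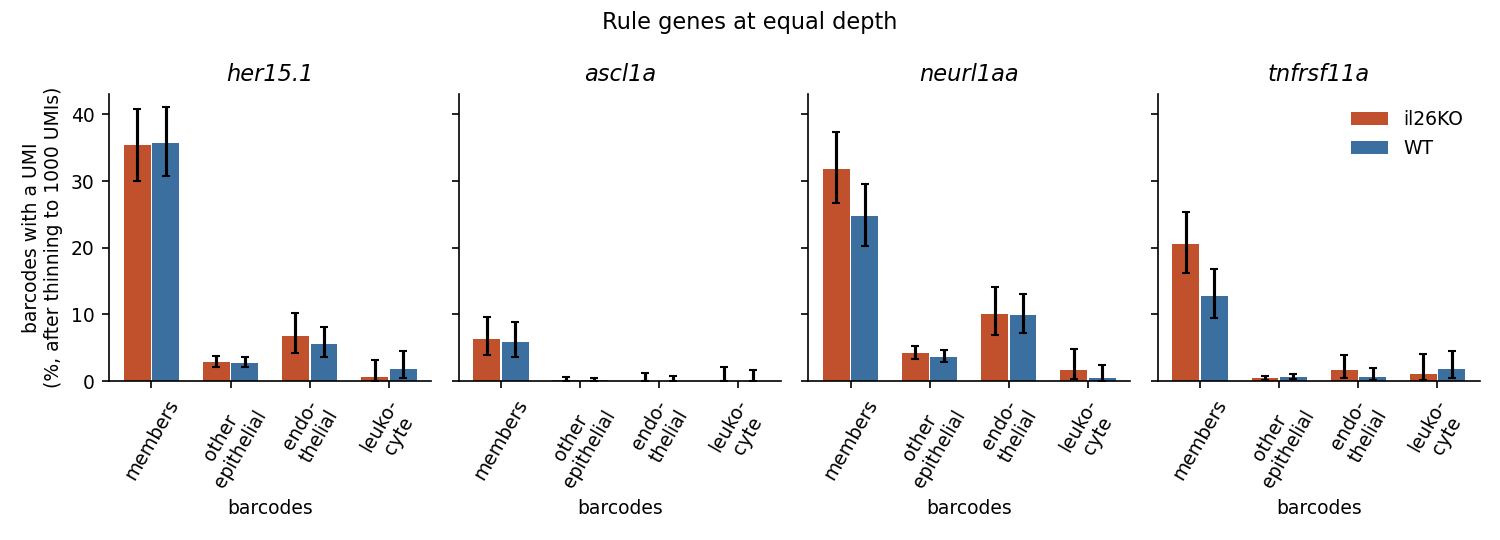
Share of barcodes with a UMI of each rule gene (y axis, %) after thinning to 1000 UMIs, in 4 classes of barcode (x axis), il26KO in orange and WT in blue, with exact binomial 95% intervals. her15.1 was left in 35.3% of il26KO members and 35.8% of WT members, and all 4 genes were lower in each other class.

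At the edge of the rule, epithelial barcodes with exactly 1 of the genes, 532 in il26KO and 630 in WT, stayed outside. Their depth was close to that of members with exactly 2, with a median of 16037 UMIs inside and 18892.5 outside in il26KO, and 16645 inside and 17041.5 outside in WT. The Delta ligand dld, which the rule did not use, stood at 9.79 CPM inside and 1.12 CPM outside in il26KO, and at 4.80 CPM inside and 1.01 CPM outside in WT. The absorptive limit left 318 of 345 il26KO barcodes and 345 of 375 WT barcodes with at least 2 of the genes. Near it, 4 il26KO members and 12 WT members had between 1% and 2% of their UMIs in the 4 absorptive genes, and 3 il26KO and 6 WT barcodes between 2% and 3% fell outside.

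The members were not of one kind, and her15.1 and ascl1a divided them into 4 sets. her15.1 without ascl1a was the most frequent set, with 179 il26KO members (56.3%, 50.6 to 61.8) and 234 WT members (67.8%, 62.6 to 72.7). Both genes were found in 53 il26KO members (16.7%) and 54 WT members (15.7%), and ascl1a without her15.1 in 28 il26KO members (8.81%) and 24 WT members (6.96%). The remaining 58 il26KO members (18.2%, 14.2 to 22.9) and 33 WT members (9.57%, 6.68 to 13.2) had neither and were members through neurl1aa and tnfrsf11a. The median depths of the 4 sets, in this order, were 17494, 19969, 14477.5 and 11751.5 UMIs in il26KO, and 17968, 23055.5, 13082 and 15053 UMIs in WT. A gene seen as absent from a barcode may lie below its depth, and the set with neither gene was the shallowest in il26KO.

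Genes of best4, duct and enteroendocrine cells were carried by part of the members, by rules chosen after their values were seen. A best4 program, 10 or more UMIs per 10000 over at least 2 of the ion-transport genes best4, otop2, ca2 and cftr and of tacr2 and pbx3a, was met by 47 il26KO members (14.8%) and 57 WT members (16.5%). These rested on her15.1: of them, 44 in il26KO and 55 in WT had her15.1 without ascl1a. A pancreaticobiliary duct program, built in the same way on si:dkey-96g2.1, onecut1, nkx6.1 and ccl19a.1, was met by 18 il26KO members (5.66%) and 35 WT members (10.1%), each of which also had her15.1 without ascl1a. An enteroendocrine program was built in the same way on scg3, pcsk1, adcyap1a, neurod1, pax6b, insm1a and rfx6. It was met by 22 il26KO members (6.92%) and 21 WT members (6.09%). With ascl1a without her15.1, it took 28.6% of the il26KO members and 20.8% of the WT members. Among other epithelial barcodes the enteroendocrine program was met by 7.05% in il26KO and 6.55% in WT. The best4 program was met there by 3.81% and 3.74%, and the duct program by 1.19% and 3.12%. At least 1 of the 3 programs was found in 26.4% of il26KO members (21.7 to 31.6) and 31.6% of WT members (26.7 to 36.8). The name progenitor is therefore not borne out for members with the best4 or duct program. The enteroendocrine program also counted transcription factors, and whether its members were precursors or differentiated cells was not tested. The epidermal list reached 1349 UMIs per 10000 in the highest il26KO member and 1394 in the highest WT member. Its medians over members were 27.8 and 44.2. Goblet cell markers likewise reached 602 and 460 per 10000, against medians of 1.40 and 1.55. How many members were such cells was not tested, so lacking the 3 programs does not make a member a progenitor. The barcodes are called members by the rule from here on.

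Receptors of Notch were high in the members. All 4 receptor genes exceeded 2-fold over the other epithelial barcodes in both libraries, in a comparison where 1033 of 13676 genes tested, 7.55%, did so. Their median log2 ratio was 2.37 in il26KO and 2.13 in WT, beside 0.43 in il26KO and 0.29 in WT over all genes tested. notch2 and notch3 divided by set, as the plot of levels in the 4 sets shows. Summed, they stood at 187 CPM in il26KO members with her15.1 without ascl1a and 34.04 CPM in those with both genes, and at 160 and 32.6 CPM in the same sets of WT. notch1b was not divided in this way, with 24.3 CPM in il26KO members with her15.1 without ascl1a and 45.2 CPM in those with both, and 22.7 and 30.6 CPM in WT. notch1a had 12.6 CPM with her15.1 without ascl1a and 24.1 CPM with both in il26KO, and 13.9 and 13.5 CPM in WT. At least 1 receptor was detected in 67.6% of il26KO members (62.2 to 72.7) and 71.9% of WT members (66.8 to 76.6), against 36.8% and 37.5% of other epithelial barcodes. A best4, duct or enteroendocrine program was carried by 38.5% of il26KO members and 42.7% of WT members with her15.1 without ascl1a. With both genes the shares were 7.5% and 0%. The part of these programs in the division of notch2 and notch3, and of the Jagged genes and hey1 below, was not tested.

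At least 1 ligand was detected in 243 il26KO members (76.4%, 71.4 to 81.0) and 253 WT members (73.3%, 68.3 to 77.9), against 37.8% and 35.4% of other epithelial barcodes. Between the sets dla, dlb and dld ran opposite to 3 of the 4 Jagged genes. Of the 9 ligand genes 8 exceeded 2-fold over other epithelial barcodes in both libraries, beside 7.55% of all genes tested. The exception was dlc, with log2 ratios of 0.63 in il26KO and 0.68 in WT. dld (ENSDARG00000020219), the ligand DeltaD, was the leading gene of the members among all genes ranked by the lower of both log2 ratios, and its 247 il26KO UMIs and 176 WT UMIs were spread over 92 il26KO members and 73 WT members. It stood at 27.4 CPM in il26KO members and 14.7 CPM in WT members, against 0.62 and 0.69 CPM in other epithelial barcodes, which gave log2 ratios of 5.40 (4.95 to 6.02) in il26KO and 4.35 (3.88 to 4.99) in WT. No single member held more than 16 of the il26KO UMIs or 12 of the WT UMIs of dld.

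dla, dlb and dld together stood at 84.5 CPM in il26KO members with ascl1a, with or without her15.1, and at 22.9 CPM in those with her15.1 without ascl1a, a log2 ratio of 1.88 (1.55 to 2.22). In WT the same values were 59.08 and 11.3 CPM, a log2 ratio of 2.39 (2.02 to 2.78). jag1a, jag1b and jag2a together ran the other way, with 21.9 CPM in il26KO members with ascl1a and 45.3 CPM in those with her15.1 without ascl1a, a log2 ratio of -1.05 (-1.51 to -0.61). In WT they stood at 13.3 and 40.2 CPM, a log2 ratio of -1.60 (-2.09 to -1.13). Both sums were formed after the values were seen. The Delta genes dlc and dll4 were left out of the first, and jag2b was left out of the second. On its own jag2b had 18.9 CPM in il26KO members with ascl1a and 12.4 CPM in those with her15.1 without ascl1a, and 7.42 and 6.94 CPM in WT, so it did not run with the other Jagged genes.

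Over the whole ligand list the ratio of members with ascl1a to those with her15.1 without ascl1a was 0.72 on the log2 scale in il26KO (0.54 to 0.91), at 178 against 108 CPM. It was 0.60 in WT (0.42 to 0.78), at 131 against 86.2 CPM. Without the members that carried a best4, duct or enteroendocrine program the ratio was 1.04 in il26KO and 1.05 in WT. Among members with at least 3 rule genes it was 0.23 in il26KO, with an interval from -0.01 to 0.47.

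dla, dlb or dld had a UMI in 106 il26KO members (33.3%, 28.2 to 38.8) and 96 WT members (27.8%, 23.2 to 32.9), against 3.70% and 4.11% of other epithelial barcodes. Doublets had not been removed from the members, and their part in these counts was not tested.

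**Figure D2:**
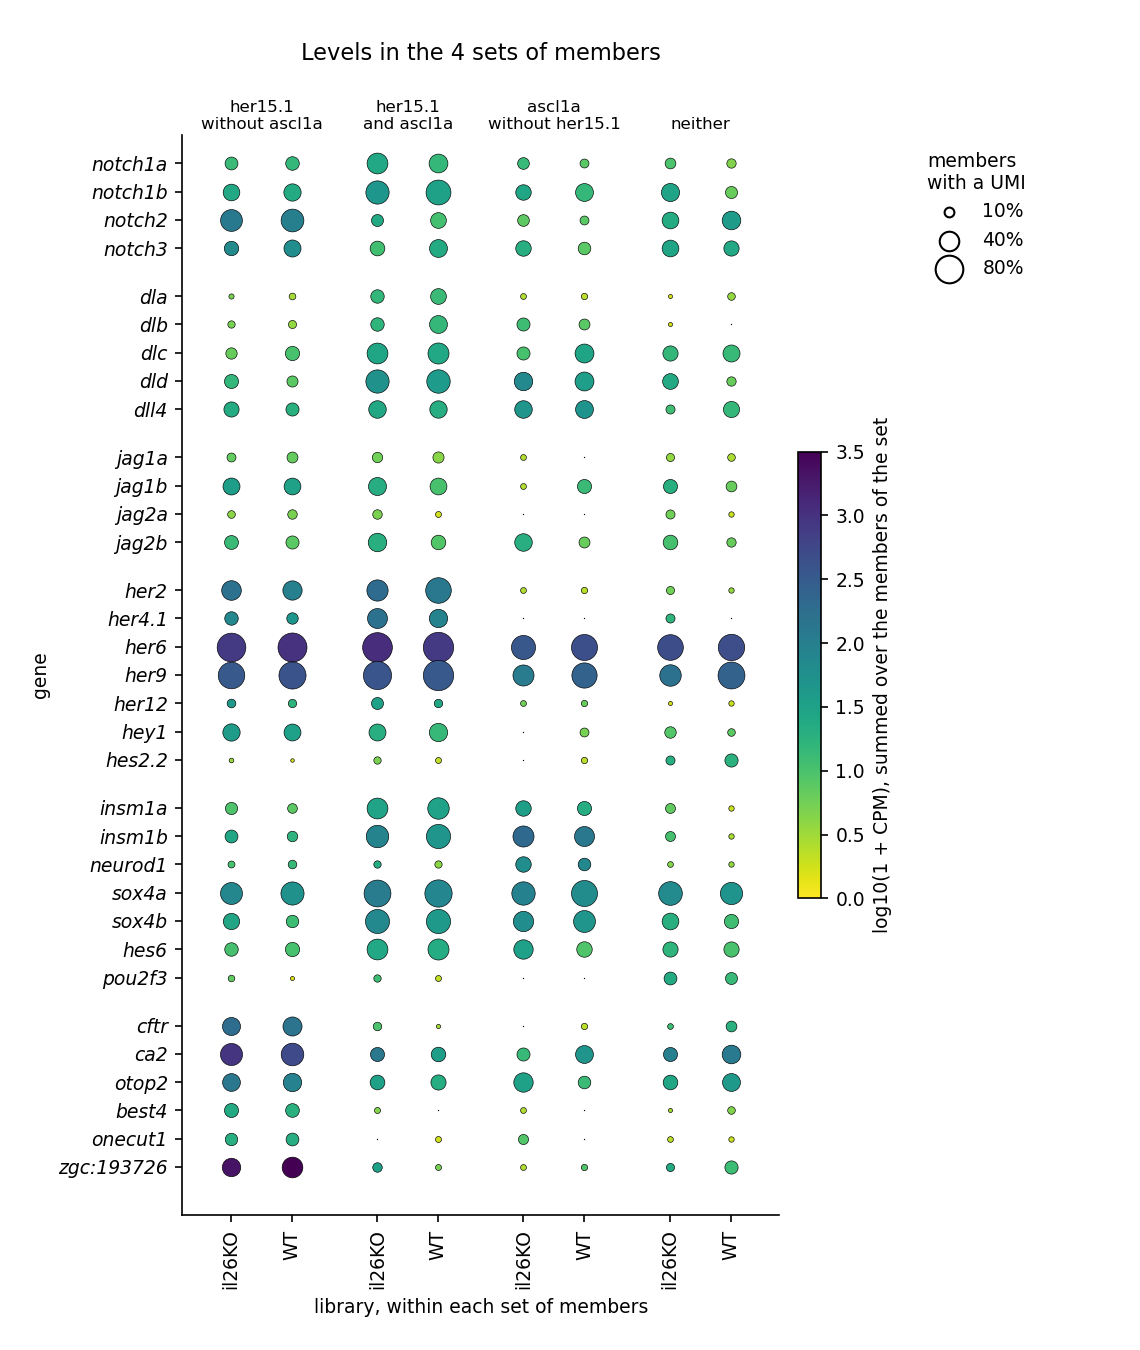
Levels of named genes (rows, grouped as receptors, Delta, Jagged, repressors, secretory factors and transport genes) in the 4 sets of members (column pairs, il26KO left and WT right). Colour gives log10(1 + CPM) summed over the set and dot area the share of its members with a UMI; notch2 and cftr are concentrated in her15.1 without ascl1a, and dld in the sets with ascl1a.

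Repressors downstream of Notch were high in the members, and among members with ascl1a her2 and her4.1 followed her15.1. Of the 11 repressor genes with enough UMIs 10 exceeded 2-fold over other epithelial barcodes in both libraries, beside 7.55% of all genes tested. her2 stood at 127 CPM in il26KO members and 87.9 CPM in WT members, against 5.12 and 8.52 CPM in other epithelial barcodes. By set, her2 (ENSDARG00000038205) had 154 CPM in il26KO members with her15.1 without ascl1a, 194 CPM with both genes and 1.60 CPM with ascl1a without her15.1, and 96.2, 125 and 1.39 CPM in WT. her4.1 was at 0 UMIs in the 28 il26KO members and the 24 WT members with ascl1a without her15.1, and at 154 CPM in il26KO and 84.8 CPM in WT where both genes were found. her6 was less divided, with 1150 CPM in il26KO members with both genes and 351 CPM in those with ascl1a without her15.1, against 825 and 454 CPM in WT. hey1, a Hairy-related repressor known from vessels, was highest in her15.1 without ascl1a, at 36.7 CPM in il26KO and 32.0 CPM in WT. The her4 and her15 genes lie in families of near-identical copies, so the level of any 1 copy is uncertain. How reads fell between the copies was not tested. The level of her4.2 rested largely on 1 barcode: of its 466 UMIs in il26KO members 286 came from 1 member.

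Among the genes around ligand and receptor few exceeded 2-fold in both libraries, where 7.55% of all genes tested did so. The processing list stood at 351 CPM in il26KO members and 337 CPM in WT members, against 276 and 277 CPM in other epithelial barcodes. These are log2 ratios of 0.35 and 0.29, beside medians of 0.43 in il26KO and 0.29 in WT over all genes tested. The transcription complex stood at 125 CPM in il26KO members and 120 CPM in WT members, against 64.4 and 68.1 CPM, log2 ratios of 0.96 and 0.82. Of 13 genes for ligand and receptor processing 1 exceeded 2-fold, a share near that over all genes tested. This gene was lfng, a glycosyltransferase that alters how Notch responds to its ligands. It had 19.1 CPM in il26KO members and 19.6 CPM in WT members, against 4.96 and 7.28 CPM in other epithelial barcodes. Of the 4 genes of the transcription complex 1 exceeded 2-fold, rbpjb, a copy of the DNA-binding partner of the cut receptor. It had 67.8 CPM in il26KO members and 71.1 CPM in WT members, against 27.8 and 29.9 CPM. nrarpa, counted in the repressor list above, is a Notch-induced ankyrin protein that damps the pathway. It stood at 58.5 CPM in il26KO members and 59.16 CPM in WT members, against 17.6 and 24.4 CPM.

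Some transcription factors of the secretory lineage were higher where ascl1a was detected, but the list as a whole was not. It had 904 CPM with ascl1a detected and 937 CPM with her15.1 without ascl1a in il26KO, and 762 and 920 CPM in WT. In the members as a whole 9 of 21 such factors exceeded 2-fold over other epithelial barcodes in both libraries, beside 7.55% of all genes tested. Among the 9 were insm1a, insm1b, sox4a, sox4b and pax4. insm1b (ENSDARG00000053301), a zinc finger factor of enteroendocrine differentiation, stood at 209 CPM in il26KO members with ascl1a without her15.1, at 85.7 CPM with both genes and at 25.8 CPM with her15.1 without ascl1a. In WT the same sets had 124, 45.8 and 16.1 CPM. neurod1, a later enteroendocrine factor, was at 60.7 CPM in il26KO and 73.6 CPM in WT where ascl1a was found without her15.1, and at 21.1 and 3.18 CPM where both were found. sox4b, a progenitor factor, was by contrast similar in these sets, at 69.8 CPM in il26KO and 39.4 CPM in WT with both genes. With ascl1a without her15.1 it had 60.7 and 45.8 CPM. The sets are classes of detection, and an order of stages between them was not tested. myb, a transcription factor of dividing progenitors that is named after its values were seen, ran highest with both genes, at 109 CPM in il26KO and 61.3 CPM in WT, against 28.8 and 17.03 CPM with her15.1 without ascl1a. atoh1a, another atoh1 gene, had 1 UMI in the il26KO members and 1 in the WT members.

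The ion-transport genes ran opposite to ascl1a. cftr, the chloride channel of best4 cells and ducts, stood at 185 CPM in il26KO members with her15.1 without ascl1a and 8.80 CPM in those with both genes, and at 147 and 1.99 CPM in WT. zgc:193726, second among the leading genes, had 2117 CPM in il26KO and 3065 CPM in WT in her15.1 without ascl1a, and 30.5 and 4.38 CPM with both genes. si:dkey-96g2.1, from the duct list, had 1922 UMIs in il26KO members with her15.1 without ascl1a and 0 in the other 3 sets, and in WT 6571 UMIs in that set and 10 in the others. Of the 7 best4 genes 5 exceeded 2-fold over other epithelial barcodes in both libraries, as did 7 of 13 duct genes. Over all genes tested 7.55% did so. anxa4 was also higher in this set, at 3824 CPM in il26KO and 3530 CPM in WT, against 1812 and 1234 CPM in members with ascl1a.

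pou2f3, the transcription factor of tuft cells in mammals, stood at 22.6 CPM in il26KO members with neither her15.1 nor ascl1a and 12.7 CPM in those of WT, and hes2.2, a hairy-related gene, at 18.5 and 17.3 CPM. The tuft-like list stood at 50.8 CPM in this set of il26KO and 40.9 CPM in that of WT, with a UMI in 16 of 58 il26KO members and 11 of 33 WT members. In WT it stood at 42.98 CPM with both genes, where 1 member held 90 of 108 UMIs. Over all members the list's log2 ratio to other epithelial barcodes was 0.10 in il26KO and -0.24 in WT. Over all members pou2f3 had 84 UMIs in il26KO and 21 in WT.

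The 12 genes that led the members over other epithelial barcodes in both libraries were dld, zgc:193726, zgc:162509, gig2d, ccl19a.1, si:ch211-213d14.2, si:ch211-153b23.7, gig2g, her2, CR762483.1, sh3bp4a and marcksb. They came from different sets: ccl19a.1, a chemokine, stood at 420 CPM in il26KO and 368 CPM in WT with her15.1 without ascl1a, and at 3.52 and 4.78 CPM with both genes. si:ch211-213d14.2 was found in 37.1% of il26KO members and 28.4% of WT members, at 56.0 and 23.7 CPM, against 1.90 and 1.79 CPM in other epithelial barcodes. met, the receptor of hepatocyte growth factor, named after its values were seen, stood at 73.1 CPM in il26KO members and 47.2 CPM in WT members, against 4.77 and 7.53 CPM.

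Anterior absorptive genes were low against other epithelial barcodes, and ileal and lysosome-rich genes were lower in sum by less. The ileal and lysosome-rich enterocyte list stood at 17387 CPM in il26KO members and 29663 CPM in WT members, against 27898 and 35986.5 CPM there. Of its 14 genes 0 were past 2-fold lower in both libraries, where 2.09% of all genes tested were. A count of 0 among 14 is near that share. Per barcode, the median of this list was 14.2 UMIs per 10000 in il26KO members and 42.2 in WT members. In other epithelial barcodes the median was 61.3 in il26KO and 70.2 in WT. The highest member had 1379 of its UMIs per 10000 in this list in il26KO and 1722 in WT. Whether such members were enterocytes was not tested. Of 12 measured anterior enterocyte genes 11 were past 2-fold lower in both libraries, where 286 of 13676 genes tested, 2.09%, were; the rule's limit on 4 absorptive genes bears on this. The lowest genes were apolipoprotein and transporter genes such as apoa4a, at 3.21 CPM in il26KO members and 2.59 CPM in WT members against 148 and 107 CPM in other epithelial barcodes. Of 16 Wnt and stem cell genes 0 exceeded 2-fold, and of 26 gut epithelial transcription factors 6 did, including sox9a, elf3 and prox1a. Over all genes tested 7.55% exceeded 2-fold in both libraries, so a count of 0 among 16 is near that share. lgr4, a receptor of the Wnt-enhancing R-spondins, had 57.5 CPM in il26KO members and 64.9 CPM in WT members, against 67.5 and 71.6 CPM in other epithelial barcodes.

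Cell-cycle genes were high in the members. Of 63 G2/M genes 54 exceeded 2-fold over other epithelial barcodes in both libraries, and of 52 S phase genes 14 did. Over all genes tested the share was 7.55%. mki67, the proliferation antigen Ki-67, stood at 91.0 CPM in il26KO members and 50.0 CPM in WT members, against 16.9 and 10.6 CPM in other epithelial barcodes. The G2/M list per 10000 UMIs of a barcode had a median of 11.7 in il26KO members (quartiles 6.11 and 38.3, highest 363) and 8.39 in WT members (5.09 and 18.7, highest 332). In other epithelial barcodes the median was 5.19 in il26KO and 4.97 in WT. At equal depth, 2 or more G2/M UMIs among 1000 were found in 43.8% of il26KO members (38.3 to 49.5) and 34.3% of WT members (29.3 to 39.6), against 20.6% and 19.03% of other epithelial barcodes. Without thinning, 97.2% of il26KO members and 94.8% of WT members had 2 such UMIs.

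Members with both her15.1 and ascl1a had the highest G2/M levels of the 4 sets. Their median was 32.4 per 10000 in il26KO and 24.9 in WT, against 9.35 and 7.93 with her15.1 without ascl1a. At equal depth 67.9% of il26KO members with both genes (53.7 to 80.1) and 63.0% of WT members with both (48.7 to 75.7) had 2 or more G2/M UMIs. With ascl1a without her15.1 the shares were 53.6% in il26KO (33.9 to 72.5) and 50% in WT (29.1 to 70.9), intervals that overlap those with both genes. With her15.1 without ascl1a the shares were 38.2% in il26KO (31.0 to 45.8) and 26.2% in WT (20.7 to 32.3). Thinned shares of the S phase list were ordered in the same way between these sets. They were 50.9% in il26KO and 53.7% in WT with both genes, and 46.4% and 37.5% with ascl1a without her15.1. With her15.1 without ascl1a they were 30.9% and 24.9%.

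**Figure D3:**
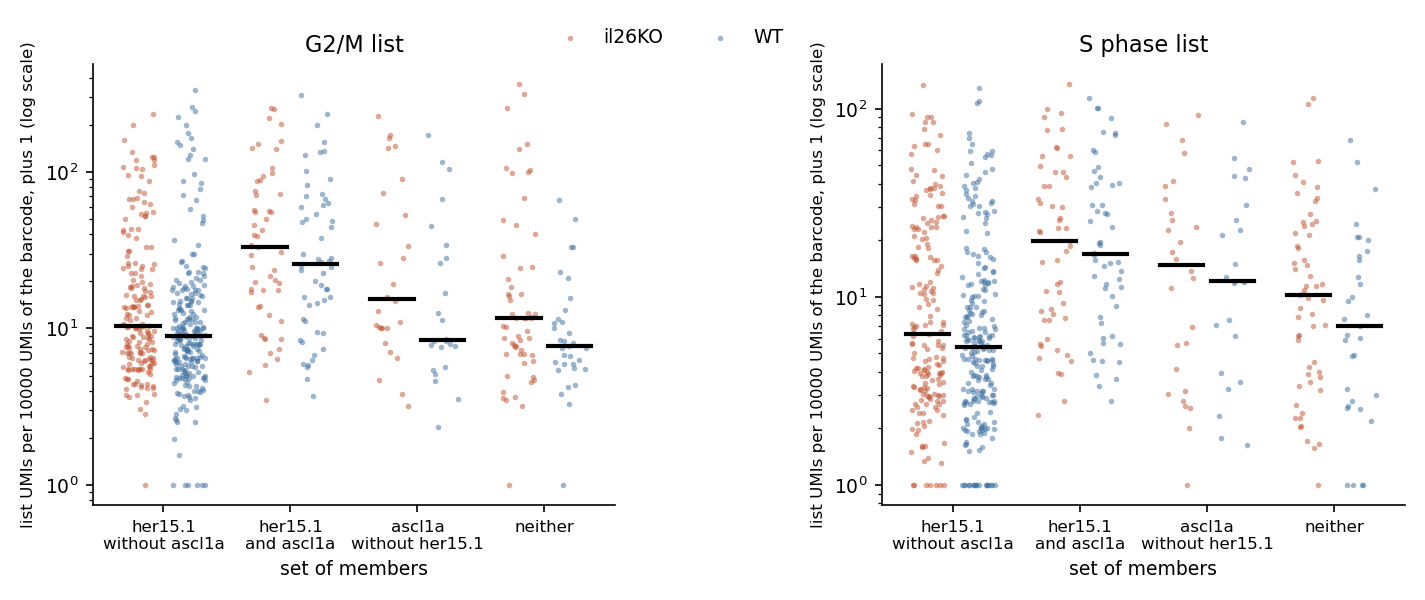
Each point is 1 member: UMIs of the G2/M list (left) and the S phase list (right) per 10000 UMIs of the barcode, plus 1, on a log scale, by set of members, il26KO in orange left of WT in blue; black bars are medians. Without the added 1, the G2/M medians with both genes are 32.4 in il26KO and 24.9 in WT, the highest of the 4 sets, and the points of all sets overlap widely.

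Members made up a larger share of the kept barcodes in il26KO, while for epithelial barcodes the interval of the ratio took in 0. They were 8.02% of kept barcodes in il26KO (7.19 to 8.91) and 6.45% in WT (5.80 to 7.14), a log2 ratio of 0.31 (0.10 to 0.53). The interval took in 0 with barcodes of at least 300 genes, at 0.16 (-0.049 to 0.38), and with at least 3 rule genes, at 0.24 (-0.099 to 0.59). Of epithelial barcodes they were 15.3% in il26KO (13.8 to 16.9) and 15.205% in WT (13.8 to 16.7), a log2 ratio of 0.01 (-0.19 to 0.21). Epithelial barcodes were 2076 of the 3967 kept in il26KO and 2269 of the 5351 kept in WT. The libraries thus also differed in the share of kept barcodes without epcam or with elavl3 or cdh5. Which tissues these barcodes came from was not tested. Among epithelial barcodes of under 3000 UMIs members were 10.7% in il26KO and 6.90% in WT, from 3000 UMIs 23.2% and 14.8%, from 10000 UMIs 19.6% and 16.3%, and from 30000 UMIs 10.6% and 17.4%. The direction between the libraries was therefore not the same at every depth, and the density gradient may also set such shares.

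**Figure D4:**
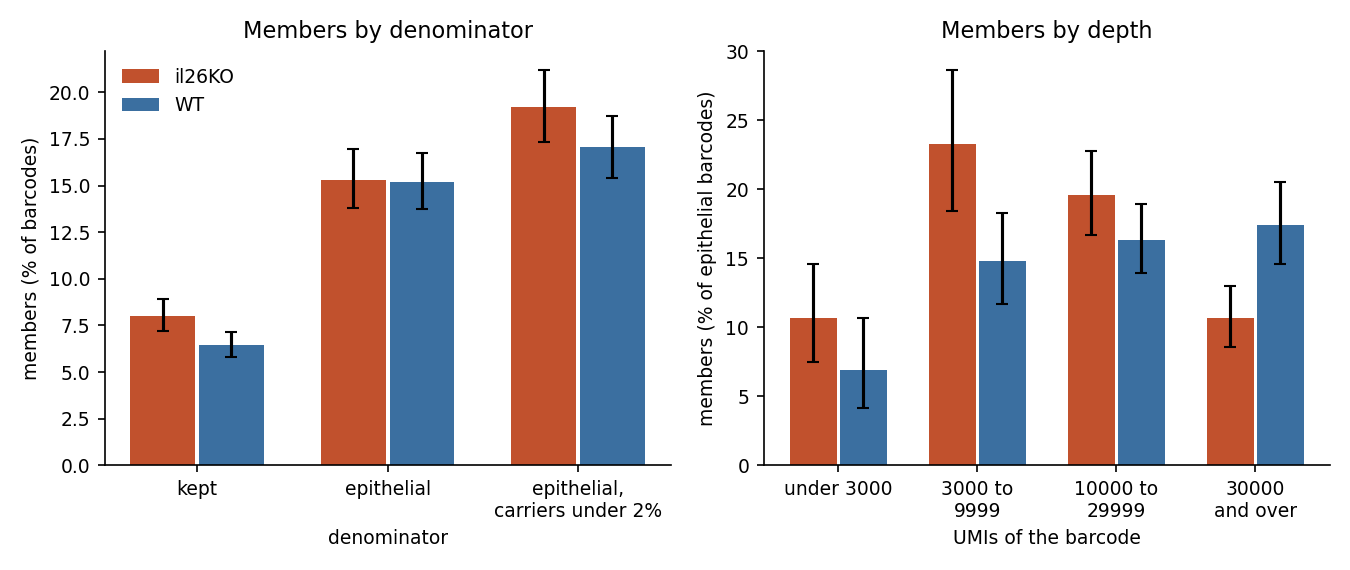
Members as a percentage of barcodes, by denominator (left) and, among epithelial barcodes, by UMIs of the barcode (right), il26KO in orange and WT in blue, with exact binomial 95% intervals. The shares of epithelial barcodes are 15.3% in il26KO and 15.205% in WT, and il26KO is higher in the 3 lower bins of depth and lower in the deepest.

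The makeup of the members by set was compared in the same way. her15.1 without ascl1a took a smaller part of il26KO members, at a log2 ratio of -0.27 (-0.44 to -0.09), and members with neither gene a larger part, at 0.93 (0.36 to 1.51). The other sets had ratios of 0.09 (-0.41 to 0.59) with both genes and 0.34 (-0.42 to 1.095) with ascl1a without her15.1. The set with neither gene was also the shallower one in il26KO, and the part of depth in these ratios was not tested.

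G2/M genes stood higher in il26KO members. The list had 2807 CPM in il26KO members and 1761 CPM in WT members, a log2 ratio of 0.67 (0.65 to 0.70), and 65 of its 65 measured genes were above WT, with a median of 0.80 beside 0.13 over all genes tested. Past 2-fold higher were 12 of these 65, where 1541 of 17078 genes tested, 9.02%, were. cdk1, the kinase that drives mitosis, stood at 46.0 CPM in il26KO members and 21.6 CPM in WT members, and mki67 was higher by 0.86 on the log2 scale (0.71 to 1.02). In other epithelial barcodes the list ratio was 0.17. The ratio rested in part on deep members, since it was 0.46 with each member weighted equally and 0.37 without members above 3 times the median UMI count of their library. Without those deep members the list stood at 2789 CPM in il26KO and 2165 CPM in WT, so mainly the WT level moved. The S phase list was higher by 0.30 (0.27 to 0.33), at 1620 CPM in il26KO members and 1314 CPM in WT members, and by 0.19 (0.17 to 0.21) in other epithelial barcodes. Among members with at least 3 rule genes the S phase ratio was 0.042 (-0.0042 to 0.088).

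Notch ligands were also higher in il26KO members, at 122 CPM against 94.7 CPM in WT members, a log2 ratio of 0.37 (0.25 to 0.49), where other epithelial barcodes had -0.12. dld had a log2 ratio of 0.89 (0.61 to 1.18) and jag2b one of 0.97 (0.56 to 1.39), while dlc was lower at -0.33 (-0.70 to 0.03). Past 2-fold were 0 of the 9 ligands and 0 of the 4 receptors, where 9.02% of all genes tested were higher and 3.18% lower. The repressor list stood at 1500 CPM in il26KO members and 1507 CPM in WT members, a log2 ratio of -0.0063 (-0.039 to 0.026), and the receptors differed by 0.16 (0.06 to 0.26). The plot of list ratios sets these beside the other epithelial barcodes.

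**Figure D5:**
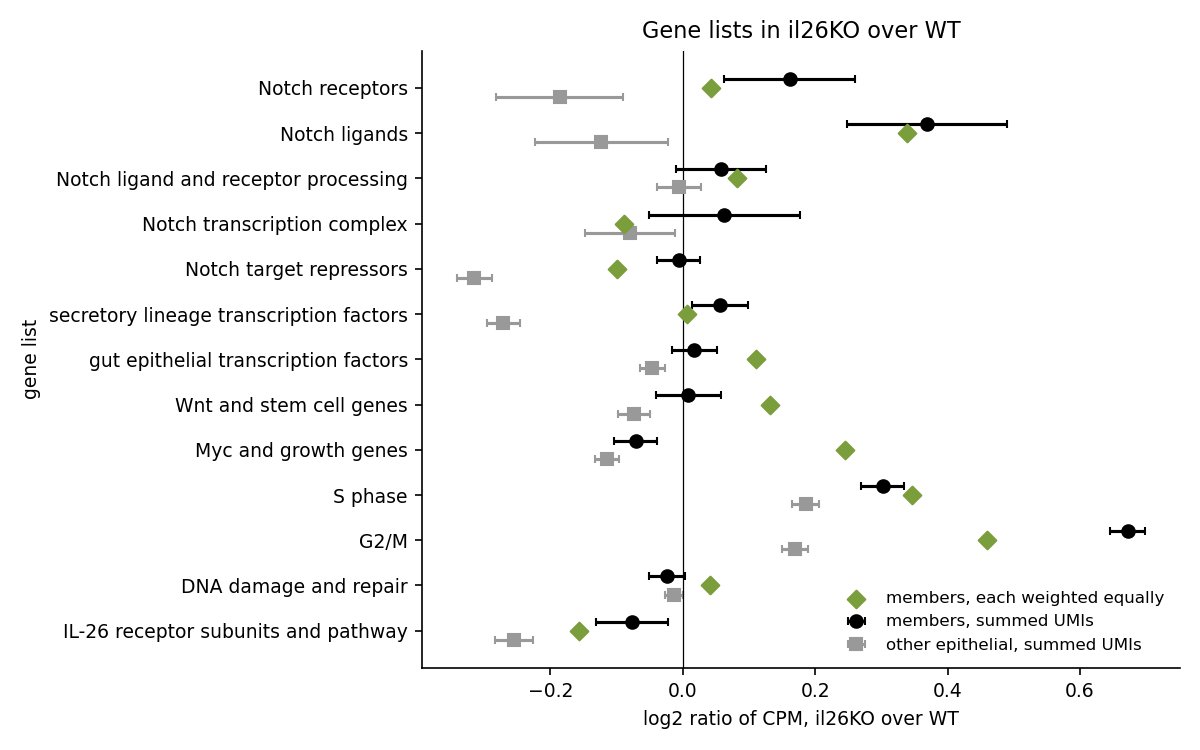
log2 ratio of CPM, il26KO over WT (x axis), for 13 gene lists (rows): members by summed UMIs (black, with exact 95% intervals), members each weighted equally (green) and other epithelial barcodes (grey). Among these 13 lists G2/M has the highest ratio in members, 0.67 by summed UMIs and 0.46 with equal weights, against 0.17 in other epithelial barcodes.

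Across all genes 1541 were past 2-fold higher in il26KO members and 543 of 17078, 3.18%, past 2-fold lower. With median-of-ratios scaling, which shifts all ratios by 0.13, the counts were 1206 higher and 709 lower. The highest ratios came from few barcodes: of the 10 highest genes 8 had over 50% of their il26KO UMIs in 1 member, and the skeletal muscle genes mylpfa, tnnt3b, mylz3, myhb and actc1b were among the 10. The skeletal muscle list stood at 1592 CPM in il26KO members and 49.3 CPM in WT members, and 1 il26KO member of 65415 UMIs, with 21.3% of them in muscle genes, held 96.8% of the il26KO muscle UMIs. The first of the 10, si:dkey-18p12.4, was spread over 34 il26KO members with 219 UMIs and had 0 in WT members, at least 96.8-fold higher against a floor of 3 UMIs over the WT members. In other epithelial barcodes it stood at 24.4 CPM in il26KO and 0.26 CPM in WT, so the difference was not particular to the members. Of the 10 highest genes 3 had the same sign in other epithelial barcodes. Of the 10 lowest genes 9 also had the same sign in other epithelial barcodes, and ghrl, the exception, had 2473 WT UMIs in 1 member. krt15, a keratin, stood at 44.0 CPM in il26KO members and 589 CPM in WT members.

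The IL-26 receptor genes and the growth and repair genes that the study's text names were all measured in members. il20ra, the IL-26 receptor subunit, stood at 23.9 CPM in il26KO members and 21.1 CPM in WT members, and its partner il10rb at 28.2 and 27.6 CPM. The paper reported neither subunit as detected in its epithelial progenitors, which were a cluster and not chosen by this rule. A best4, duct or enteroendocrine program was carried by 26.4% of il26KO members and 31.6% of WT members. Whether the receptor UMIs came from these members was not tested. The list of receptor and pathway genes stood at 528 CPM in il26KO members and 556 CPM in WT members. In other epithelial barcodes it had 334 and 399 CPM, and in empty droplets 367 and 420 CPM. The part of RNA from outside the cell in these levels was not tested. il26 itself had 0 UMIs in members of both libraries, so it gives no check of the genotype here. prmt1, an arginine methyltransferase, differed by 0.37 (0.19 to 0.56). Of the 12 measured genes that the study's text names 0 were past 2-fold between the genotypes. Over all genes tested 9.02% were past 2-fold higher and 3.18% lower, so a count of 0 among 12 is near that share. Of the 12 genes 11 stood above WT, with a median log2 ratio of 0.17 beside 0.13 over all genes tested.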

How the data were processed

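The authors' deposited counts (UMIs per gene and barcode, Cell Ranger 7.1.0 by the file header, danRer11) were used as whole-number counts for 1 WT and 1 il26KO library, with 27771 features summed to 27056 symbols. Members and gene lists were chosen with earlier results of these data known. Sums over members gave CPM. Ratios of single genes used 1 UMI as pseudocount. Counts of genes took those with at least 20 UMIs, and past 2-fold counted as called. Ratios of sums over several genes, and the intervals of all ratios, used no pseudocount. Shares have exact Clopper-Pearson intervals, share ratios Katz intervals and sums exact Poisson or conditional intervals at 95%. Named genes were list genes, the 12 highest and 6 lowest against other epithelial barcodes, and the 10 highest and 10 lowest between genotypes. Doublets were kept: Scrublet's own threshold called 1 barcode in each library (0.0252% in il26KO and 0.0187% in WT), so it had not worked, and an alternative removed the highest scores. Intervals and ratios were tested on simulated independent Poisson and binomial counts. That setting leaves out UMIs clumped in single members, so it cannot show how the intervals hold there. Python 3.11.15, numpy 2.4.6, scipy 1.17.1, pandas 2.3.3, scanpy 1.11.5 and matplotlib 3.10.9 were used.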

Additional observations from a re-analysis of the deposited data

How the results depend on the processing

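No paired analysis was possible because there is 1 library a genotype, and for the same reason no replicate could be left out. Under 12 alternatives the log2 ratio of the members' share of kept barcodes was between 0.16 and 0.50. Its interval took in 0 with at least 300 genes (-0.049 to 0.38), at least 3 rule genes (-0.099 to 0.59) and thinned barcodes (-0.34 to 0.98). The ratio for epithelial barcodes, 0.01, lay on both sides of 0, between -0.07 and 0.20. One alternative left her15.1 out of the rule, which, as atoh1b had 0 UMIs, in effect asked for 2 of ascl1a, neurl1aa and tnfrsf11a. The G2/M ratio of 0.67 was 0.78 with at least 3 rule genes, 0.76 without her15.1 in the rule and 0.60 with absorptive genes under 5%. It was 0.53 with the rule on thinned barcodes, 0.55 with median-of-ratios scaling, 0.46 with equal weights and 0.37 without members above 3 times the median UMI count. In the same order the S phase ratio of 0.30 was 0.042, 0.17, 0.24, 0.60, 0.18, 0.35 and 0.19. Counts of genes move with how many were tested. The 1541 genes higher in il26KO members, 9.02% of those tested, were 871 with at least 3 rule genes (6.48%), 583 on thinned barcodes (11.6%), 794 without the deepest members (5.42%) and 903 at 50 UMIs or more (6.55%), where the 543 lower genes (3.18%) were 353 (2.56%). The 1033 genes higher in members than in other epithelial barcodes, 7.55%, were 632 with at least 3 rule genes (6.56%) and 321 on thinned barcodes (15.5%). Without her15.1 in the rule they were 635 (5.58%). The ligand ratio of 0.72 in il26KO was 0.23 with at least 3 rule genes and 0.17 without her15.1 in the rule. That of 0.60 in WT was 0.88 on thinned barcodes and 0.85 with equal weights. Without members that carried a best4, duct or enteroendocrine program, chosen after seeing the data, the S phase ratio was 0.41, the ligand ratios were 1.04 in il26KO and 1.05 in WT, and the 1033 genes were 622 (5.08%). Thinned barcodes left 35 il26KO members and 38 WT members, so these values rest on few cells; for the others the cause was not tested.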

Other observations

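Stress and inflammation genes stood higher in the members of both libraries than in other epithelial barcodes. The list had 15953 CPM in il26KO members and 11179 CPM in WT members, against 8871 and 8070 CPM in other epithelial barcodes. Most of its genes did not share the higher sum of il26KO members. Of the 16 measured genes 6 were above WT, with a median log2 ratio of -0.16 beside 0.13 over all genes tested. hsp70l, a heat shock chaperone, stood at 7913 CPM in il26KO members and 2393 CPM in WT members, a log2 ratio of 1.73, and was also higher in il26KO in other epithelial barcodes, by 1.04. By set, the list was highest with her15.1 without ascl1a, at 19434 CPM in il26KO and 12661 CPM in WT. cxcl8a, a neutrophil-attracting chemokine, had 269 CPM in il26KO members and 101 CPM in WT members, but 1355 of its 2426 il26KO UMIs came from 1 member. saa ran the other way, at 20.1 CPM in il26KO members and 73.8 CPM in WT members.

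Of 22 measured genes that mark position along the gut 2 were past 2-fold higher and 4 past 2-fold lower in il26KO members, beside 9.02% and 3.18% of all genes tested, and their median log2 ratio was -0.045. hoxb13a, a posterior HOX gene among them, stood at 46.2 CPM in il26KO members and 166 CPM in WT members, with a UMI in 33 il26KO members and 69 WT members. The ileal and lysosome-rich enterocyte list, of the mid and posterior gut, stood at 17387 CPM in il26KO members and 29663 CPM in WT members, a log2 ratio of -0.77, and -0.37 in other epithelial barcodes. In empty droplets the list stood at 20955 CPM in il26KO and 23213 CPM in WT. Of its 14 genes 6 were past 2-fold lower in il26KO members, beside the same 3.18%. Hepatocyte genes ran the other way, at 972 CPM in il26KO members and 285 CPM in WT members, and 2196 and 402 CPM in empty droplets. Of the 8769 hepatocyte UMIs of il26KO members 1 member held 4910 and another 2441, and of the 3406 of WT members 1 held 2449 and another 640. Vascular endothelial genes were near 0 in members, at 10.4 CPM in il26KO and 7.52 CPM in WT. The part of these differences in the genotype ratios above was not tested.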
